A study of Mus musculus with 7 samples.

Results

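The Cyp4a and Cyp4b genes encode cytochrome P450 enzymes that hydroxylate fatty acids at or next to the end of the carbon chain. Members were chosen by name, as the genes of a compiled table of read counts whose Ensembl identifiers carry the symbols Cyp4a10, Cyp4a14, Cyp4a12a, Cyp4a12b, Cyp4a31, Cyp4a32 and Cyp4b1. All 7 were found among 42256 identifiers, and all 7 passed the low-count filter that left 17964 genes for testing. The libraries were made from kidney tissue of adult males whose strain background mixed 129S1/Sv with C57BL/6. Of these, 3 were labelled CDH11+/+ (wild-type-labelled) and 4 CDH11-/- (knockout-labelled), genotypes of the adhesion gene cadherin-11 whose allele the labels do not describe. Both groups had a kidney removed and angiotensin II infused by osmotic pump at 800 ng/kg/min, and kidneys were taken after 4 weeks. No uninjured kidney was part of the comparison, so a difference that preceded injury cannot be told apart from a different response to it.

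The products of these enzymes link lipid metabolism to blood pressure. Hydroxylation of arachidonic acid at its end gives 20-HETE, a lipid that constricts renal vessels and inhibits tubular salt transport, and hydroxylation of other fatty acids is the entry step of omega-oxidation. In mice, Cyp4a12a is the 20-HETE synthase that androgens induce in the male kidney. Cyp4a10 and Cyp4a14 are classic targets of the lipid-sensing receptor PPAR-alpha, and disruption of either gene raises blood pressure in mice. Cyp4b1 acts on shorter fatty acids and on foreign compounds, and is also induced by androgens in mouse kidney.

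Total counts ranged from 72087906 to 84786351 per library, and levels in CPM are counts scaled to the TMM-adjusted library size. Cdh11 itself was not lower under the knockout label, with 9.56 to 11.6 CPM there and 4.52 to 10.8 CPM under the wild-type label, so every direction below is between labels. Wild-type-labelled replicate 3 stood apart in its summed Y-linked transcripts, 64.7 CPM against 111 to 145 CPM in the other libraries. Mitochondrial ribosomal RNA took 13.5% to 18.2% of counts under the wild-type label and 10.7% to 13.5% under the knockout label. Adjusted p-values come from edgeR's quasi-likelihood test with Benjamini-Hochberg adjustment over all 17964 genes, and a gene was called when this value was under 0.05.

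All 7 members lie on mouse chromosome 4 (mm10), within 348.7 kb from 115299046 to 115647723, and several are near copies. Stretches of coding sequence, taken from GENCODE M21 transcripts, are shown because they set how well reads can be assigned. The coding sequences of Cyp4a12a and Cyp4a12b differed at 23 of 1524 aligned bases (98.49% identity). The first pair below is the 60-base stretch with the most differences, 4, and it covers bases 624 to 683 of both. The next 3 sequences are the stretch of the same length with the most differences among Cyp4a10, Cyp4a31 and Cyp4a32, bases 200 to 259, with 9 positions at which they were not all alike. Capitals mark the differing bases, and all are written 5′ to 3′ on the coding strand.
Cyp4a12a: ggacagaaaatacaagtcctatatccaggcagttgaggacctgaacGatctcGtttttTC
Cyp4a12b: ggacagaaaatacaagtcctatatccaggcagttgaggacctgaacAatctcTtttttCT
Cyp4a10: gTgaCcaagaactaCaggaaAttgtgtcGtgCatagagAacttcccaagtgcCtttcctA
Cyp4a31: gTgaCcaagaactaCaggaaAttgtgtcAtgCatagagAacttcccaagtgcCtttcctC
Cyp4a32: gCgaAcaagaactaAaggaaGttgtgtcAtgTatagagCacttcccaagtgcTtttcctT

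Transcript words of 31 bases show how much of each gene is its own. Only 37.8% of those of Cyp4a12a, 37.1% of Cyp4a12b and 37.2% of Cyp4a32 occurred in no other member or Cyp4b1 pseudogene. The shares were 55.1% for Cyp4a10 and 69.7% for Cyp4a31, whose coding sequences were 96.59% identical. Cyp4a14 (99.5%) and Cyp4b1 (88.2%) were far more distinct. How the authors divided reads between copies is not stated in the labels or files, so the separate values of Cyp4a12a and Cyp4a12b, and of Cyp4a10, Cyp4a31 and Cyp4a32, are uncertain, and sums over copies are given beside them.

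Every member differed between the labels, in opposite directions. Cyp4a12a and Cyp4b1 rose in the knockout-labelled kidneys and Cyp4a14, Cyp4a10, Cyp4a32, Cyp4a31 and Cyp4a12b fell. Of all tested genes 29.7% were called, 16.8% higher and 12.9% lower, so calls were common in this comparison. CPM values of the labels did not overlap for any of the 7 members, against 38.5% of all tested genes. The members were chosen with earlier results of these data known, so these shares are no independent evidence. When wild-type-labelled replicate 3 was left out, the fold changes on the log2 scale were 1.84 for Cyp4a12a, 1.27 for Cyp4b1, -4.37 for Cyp4a14, -2.26 for Cyp4a10, -1.96 for Cyp4a32, -0.86 for Cyp4a31 and -0.64 for Cyp4a12b, all still called. In whole tissue, a change in the number of cells of a type and a change in RNA per cell cannot be told apart.

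**Figure D1:**
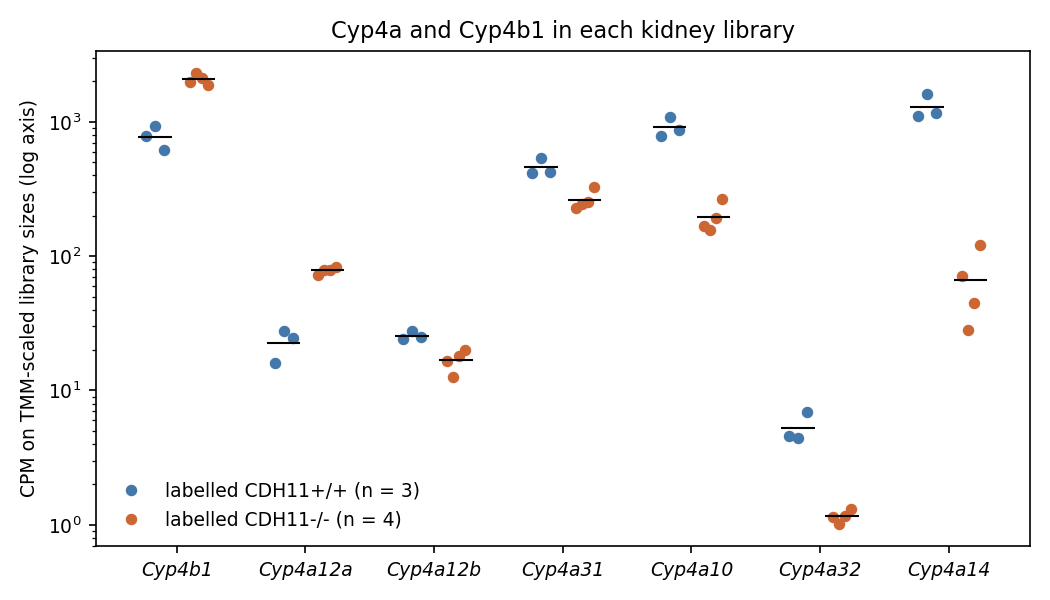
Level in CPM (log axis) of the 7 genes in each library, with wild-type-labelled libraries in blue, knockout-labelled libraries in orange and group means as black lines. Cyp4b1 and Cyp4a12a were higher in every knockout-labelled library, and the other 5 genes were lower.

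Cyp4a12a (ENSMUSG00000066071, plus strand, 115299046 to 115332815), the androgen-induced 20-HETE synthase, had 15.9, 27.5 and 24.5 CPM in wild-type-labelled replicates 1 to 3. In knockout-labelled replicates 1 to 4 it had 72.2, 79.5, 78.9 and 82.7 CPM. The knockout-labelled libraries were close to each other and all above the highest of the other label. On the log2 scale the difference, knockout minus wild-type label, was 1.79 (SE 0.17, adjusted p = 0.0003, edgeR), a 3.46-fold rise.

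Cyp4a12b (ENSMUSG00000078597, plus strand, 115411624 to 115439034), its near copy, did not follow it. It had 24.1, 27.7 and 25.1 CPM under the wild-type label and 16.4, 12.7, 17.9 and 19.96 CPM under the knockout label. It fell by 0.61 on the log2 scale (SE 0.14, adjusted p = 0.0102, edgeR), the smallest change of the 7. Cyp4a12a made up 39.4%, 49.5% and 49.2% of the summed Cyp4a12 level per length in the wild-type-labelled libraries, and 80.4% to 86.1% in the knockout-labelled ones. When the counts of both genes were added before the fit, the sum was 0.98 higher on the log2 scale (adjusted p = 0.000322, edgeR), a smaller change than that of Cyp4a12a alone.

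Cyp4b1 (ENSMUSG00000028713, minus strand, 115624725 to 115647723) had 789, 926 and 615 CPM under the wild-type label. It had 1997, 2300, 2103 and 1897 CPM under the knockout label. The lowest knockout-labelled library lay well above the highest wild-type-labelled one. It rose 2.67-fold, from 777 ± 156 CPM (SD, n = 3) under the wild-type label to a mean of 2074 ± 172 CPM (SD, n = 4), with a log2 fold change of 1.42 (SE 0.14, adjusted p = 0.000196, edgeR). Per length it became one of the most abundant transcripts of the kidney, at rank 33 of 42256 genes under the knockout label against rank 63 under the wild-type label. Both annotated Cyp4b1 pseudogenes in the cluster rose too, Cyp4b1-ps2 by 1.67 on the log2 scale (adjusted p = 0.00697, edgeR) and Cyp4b1-ps1 by 1.23 (adjusted p = 0.015, edgeR). Their counts were 32 to 226 and 13 to 70 per library, against 53245 to 181805 for Cyp4b1, with which they share sequence.

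The PPAR-alpha-linked genes went the other way. Cyp4a14 (ENSMUSG00000028715, minus strand, 115486200 to 115496142) had 1112, 1625 and 1154 CPM in wild-type-labelled replicates 1 to 3. In knockout-labelled replicates 1 to 4 it had 71.2, 28.3, 44.8 and 122 CPM. Every knockout-labelled library was far below every other library, and these 4 also differed widely among themselves. It fell by 4.28 on the log2 scale (SE 0.52, adjusted p = 0.00202, edgeR) and had the 3rd largest fall among the 2168 genes that were called lower and averaged 1 CPM or more. In rank of level per length Cyp4a14 went from 46 under the wild-type label to 1259 under the knockout label.

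Cyp4a10 (ENSMUSG00000066072, plus strand, 115518264 to 115533649) had 779, 1081 and 866 CPM under the wild-type label. Under the knockout label it had 167, 157, 191 and 267 CPM. The groups were widely separated, with a log2 fold change of -2.22 (SE 0.20, adjusted p = 0.000221, edgeR). Cyp4a32 (ENSMUSG00000063929, plus strand, 115600969 to 115621602), of the same branch, was the least abundant member, at 4.55, 4.41 and 6.90 CPM against 1.13, 1.02, 1.17 and 1.32 CPM. It fell by nearly the same amount as Cyp4a10, 2.19 on the log2 scale (SE 0.19, adjusted p = 0.000101, edgeR). Of the 31-base words of Cyp4a32, 49.2% also occurred in the far more abundant Cyp4a10, so its separate fall is uncertain.

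Cyp4a31 (ENSMUSG00000028712, plus strand, 115563649 to 115579015) fell least among the close relatives of Cyp4a10. It had 413, 542 and 427 CPM under the wild-type label and 229, 243, 254 and 329 CPM under the knockout label. It fell by 0.80 on the log2 scale (SE 0.14, adjusted p = 0.00345, edgeR). With the counts of Cyp4a10, Cyp4a31 and Cyp4a32 added before the fit, the sum fell by 1.58 on the log2 scale (adjusted p = 0.000308, edgeR).

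The order of the genes by level changed with these shifts. Levels per length, in TPM, were computed from the deposited counts and the annotated exon length and have the same total in each library. Under the wild-type label the order was Cyp4a14 (684 ± 116 TPM, SD, n = 3), Cyp4a10 (593 ± 86.3 TPM), Cyp4b1 (471 ± 56.7 TPM) and Cyp4a31 (252 ± 29.2 TPM). Cyp4a12b (14.8 ± 1.21 TPM), Cyp4a12a (12.9 ± 3.60 TPM) and Cyp4a32 (4.83 ± 1.73 TPM) followed far below. The ranges of Cyp4a14 and Cyp4a10 overlapped between libraries, as did those of Cyp4a12b and Cyp4a12a, but within each of the 3 libraries Cyp4a14 was above Cyp4a10 and Cyp4a12b above Cyp4a12a.

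Under the knockout label Cyp4b1 led at 1338 ± 119 TPM (SD, n = 4). Cyp4a31 (153 ± 24.7 TPM) and Cyp4a10 (135 ± 33.2 TPM) came next, with overlapping ranges, and Cyp4a31 was above Cyp4a10 within each of the 4 libraries. Cyp4a12a (47.1 ± 2.31 TPM) and Cyp4a14 (37.2 ± 22.8 TPM) also overlapped, since Cyp4a14 ranged from 16.0 to 67.9 TPM, and Cyp4a12a was above it in 3 of the 4 libraries. Cyp4a12b (10.2 ± 1.77 TPM) and Cyp4a32 (1.10 ± 0.108 TPM) were lowest.

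The 6 Cyp4a genes summed to 1562 ± 231 TPM (SD, n = 3) in the wild-type-labelled libraries, whereas the sum was 383 ± 81.1 TPM (SD, n = 4) in the others. The summed level was lower in all 4 knockout-labelled libraries, at 325.9 to 503.5 TPM against 1316 to 1775 TPM. Cyp4a14 went from 43.7% ± 1.52 (SD, n = 3) of this sum to 9.23% ± 3.99 (SD, n = 4). Cyp4a12a and Cyp4a12b together went from 1.77% ± 0.164 to 15.3% ± 2.15, and Cyp4a31 from 16.2% ± 0.550 to 40.2% ± 2.67. Cyp4a10 held 38.0% ± 1.03 and 34.98% ± 1.55, while its level fell. With Cyp4b1 included, the 7 genes summed to 2033 ± 259 TPM and 1722 ± 75.0 TPM, with ranges of 1786 to 2303 TPM and 1665 to 1828 TPM that overlapped.

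**Figure D2:**
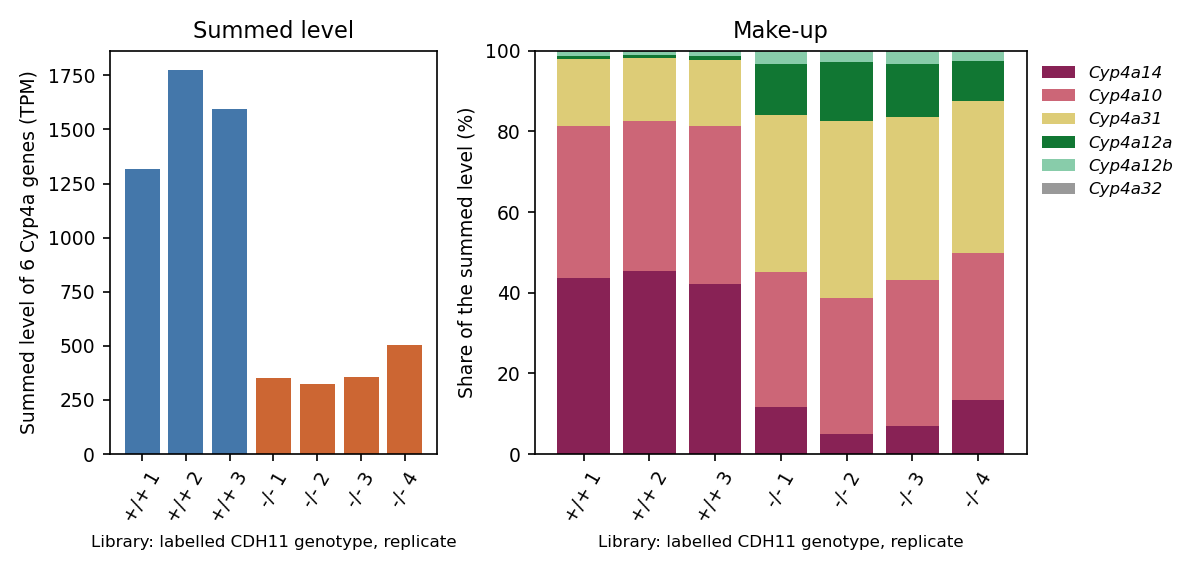
Left, the summed level of 6 Cyp4a genes in TPM for each library, and right, the share of each gene in that sum in percent. The sum was 1316 to 1775 TPM in the 3 wild-type-labelled libraries and 325.9 to 503.5 TPM in the 4 knockout-labelled ones, where Cyp4a14 shrank and Cyp4a31 and Cyp4a12a took larger shares.

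The androgen-linked and PPAR-alpha-linked genes were compared directly by their ratio within each library, which does not depend on library scaling. The log2 ratio of summed Cyp4a12a and Cyp4a12b counts to summed Cyp4a10 and Cyp4a14 counts was -5.56, -5.61 and -5.35 in wild-type-labelled replicates 1 to 3. It was -1.42, -1.01, -1.29 and -1.92 in knockout-labelled replicates 1 to 4. The ratio was higher in 4 of 4 knockout-labelled libraries than in any other, by 4.10 on the log2 scale, or 17.1-fold. A 2-sided exact permutation test gave p = 0.0571, the smallest value that 3 against 4 libraries allow.

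In all, 7 such ratios were computed, and 6 of them parted the labels fully with the same exact permutation p = 0.0571 (adjusted p = 0.0666). Cyp4a12a over Cyp4a14 alone shifted by 6.30 on the log2 scale and Cyp4a12a over Cyp4a10 alone by 4.06. Cyp4a12b, although it fell, did so less than its neighbours, and its ratio to summed Cyp4a10 and Cyp4a14 was 2.48 higher on the log2 scale. Within the PPAR-alpha pair the log2 ratio of Cyp4a14 to Cyp4a10 was 0.41 to 0.59 in the wild-type-labelled libraries and -2.47 to -1.13 in the others, so the genes of that pair did not fall equally. The ratio of Cyp4b1 to Cyp4a12a was the one that did not separate the labels, with log2 values of 4.65 to 5.63 and 4.52 to 4.85 (exact permutation p = 0.229, adjusted p = 0.229).

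Within a label the members varied together to some extent. Knockout-labelled replicate 4 had the highest value of its group for all 6 Cyp4a genes and the lowest for Cyp4b1. It lay above its group mean by 1.08 on the log2 scale for Cyp4a14, by 0.48 for Cyp4a10 and by 0.33 for Cyp4a31. Knockout-labelled replicate 2 was lowest for Cyp4a14, 1.02 below the mean, and highest for Cyp4b1, 0.15 above it. Among the wild-type-labelled libraries replicate 2 was highest for 6 of the 7 genes, Cyp4a32 being the exception.

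Among the members, Cyp4a12a and Cyp4b1 at either end of the cluster rose and the Cyp4a genes between them fell. The directions alternated only when the 2 Cyp4b1 pseudogenes were counted. These had few counts, and only 55.1% (Cyp4b1-ps1) and 53.8% (Cyp4b1-ps2) of their 31-base words were in no other gene compared. Their separate values are therefore uncertain. From the Cyp4a12a end, the called genes ran higher (Cyp4a12a), lower (Cyp4a12b, Cyp4a14, Cyp4a10), higher (Cyp4b1-ps1), lower (Cyp4a31), higher (Cyp4b1-ps2), lower (Cyp4a32) and higher (Cyp4b1). Within 100 kb of a member lay 12 other annotated genes, of which 7 had no count in any library and 3 could be tested. Besides the 2 pseudogenes this left Efcab14, a calcium-binding domain gene 90.0 kb from the start of Cyp4b1, at 52.6 CPM under the wild-type label and 52.5 CPM under the knockout label (log2 fold change 0.00, adjusted p = 0.989, edgeR).

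**Figure D3:**
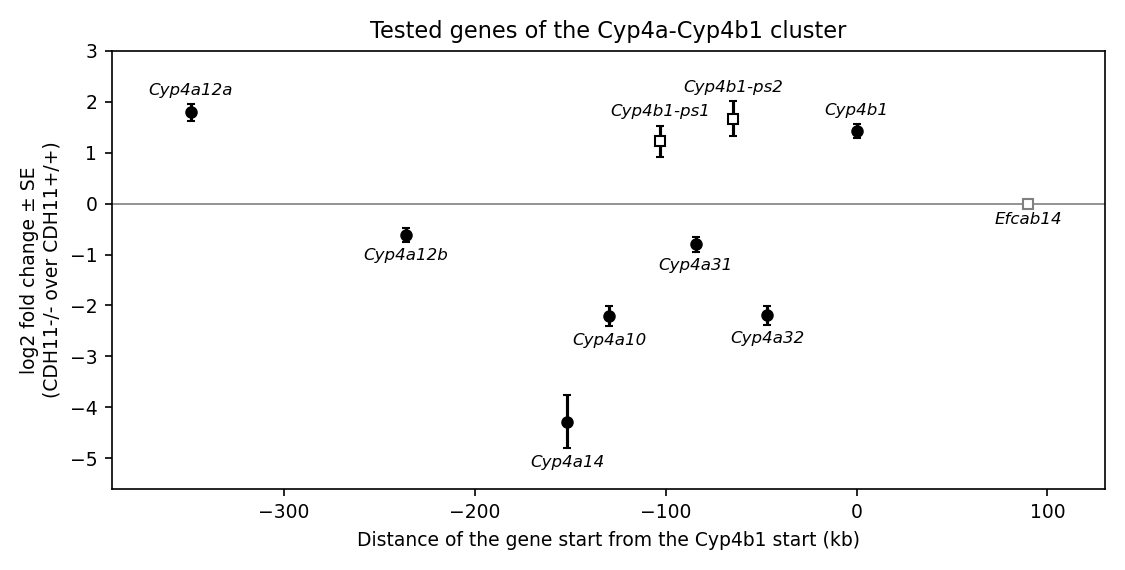
The log2 fold change (knockout over wild type label, with SE) of each tested gene of the cluster against the distance in kb of its start from that of Cyp4b1; filled circles are members, open squares other genes, and grey marks a gene that was not called. Cyp4a12a at one end and Cyp4b1 near the other rose, the Cyp4a genes between them fell, and Efcab14 lay at 0.00.

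Promoters of neighbours that moved apart, Cyp4a32 and Cyp4b1, are shown as the windows at hand from RefSeq (GRCm38.p6), with 250 bases before and 50 after the start and 2 of 7 members matched. That of Cyp4a32 is chr4:115600688-115600987 on the plus strand and that of Cyp4b1 is chr4:115647672-115647971 on the minus strand. Capitals mark matches, on either strand, to AGGTCA (a nuclear receptor half-site of the kind PPAR-alpha binds), AGAACA (a steroid receptor half-site) or TATAAA (the TATA box).
Cyp4a32: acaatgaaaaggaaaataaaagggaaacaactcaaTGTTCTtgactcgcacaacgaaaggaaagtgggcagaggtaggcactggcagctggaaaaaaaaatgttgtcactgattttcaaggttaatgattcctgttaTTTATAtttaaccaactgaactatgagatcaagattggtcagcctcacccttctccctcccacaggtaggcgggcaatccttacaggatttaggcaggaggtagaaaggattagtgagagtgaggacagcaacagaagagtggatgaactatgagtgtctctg
Cyp4b1: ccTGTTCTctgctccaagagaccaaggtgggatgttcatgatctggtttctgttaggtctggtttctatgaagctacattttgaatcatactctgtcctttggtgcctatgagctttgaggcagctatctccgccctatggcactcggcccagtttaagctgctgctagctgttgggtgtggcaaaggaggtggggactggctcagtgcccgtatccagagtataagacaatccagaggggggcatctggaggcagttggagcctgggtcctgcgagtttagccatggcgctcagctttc

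The AGAACA letters stood once in each window, on the opposite strand, 215 bases before the start of Cyp4a32 and 248 bases before that of Cyp4b1. The TATAAA letters stood only in the Cyp4a32 window, on the opposite strand, and AGGTCA in neither. Of 32851 promoter windows of this length 19.0% held AGAACA, 16.3% AGGTCA and 13.6% TATAAA, and the motifs do not overlap in these 2 windows. The gene of one window with the AGAACA letters fell and that of the other rose.

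The other Cyp4 genes were examined in the same fit. Of 20 others listed 12 could be tested, and 5 rose, 1 fell and 6 were not called, where 29.7% of all tested genes were called. Those that rose include the Cyp4b1 pseudogenes, which had few counts and share sequence with Cyp4b1. The median log2 fold change of the 12 genes was 0.17 (all tested genes, -0.01). Besides the pseudogenes above, the Cyp4f genes Cyp4f13, Cyp4f17 and Cyp4f14 rose 1.25-fold, 1.23-fold and 1.65-fold (adjusted p = 0.00517, 0.0217 and 0.0427, edgeR), the last from under 1 CPM. Cyp4v3, whose human counterpart hydroxylates fatty acids in the retina, was 1.31-fold lower (adjusted p = 0.0303, edgeR). Cyp4f16 (log2 fold change -0.14), Cyp4f15 (-0.04), Cyp4f18 (-0.85), Cyp4f39 (-0.51), Cyp4f37 (0.04) and Cyp4f41-ps (1.61) did not pass the test. When wild-type-labelled replicate 1 was left out 2 rose, and 3 rose when knockout-labelled replicate 3 or 4 was left out. Of the 7 fits that left out a library, Cyp4v3 kept its call in that without replicate 3 of the wild-type label and that without replicate 4 of the knockout label.

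Classic PPAR-alpha targets other than the members moved in both directions. Of 33 tested, 8 rose, 6 fell and 19 were not called (42.4% called, against 29.7% of all tested genes). The median change was -0.09 on the log2 scale. Fabp1, a fatty acid binding protein, fell from 0.722 CPM to 0.0498 CPM (adjusted p = 0.000403, edgeR). In the other direction Aldh3a2, the fatty aldehyde dehydrogenase, rose 2.001-fold and Acadm, the medium-chain acyl-CoA dehydrogenase, 1.77-fold (adjusted p = 9.7e-05 and 0.000329, edgeR). When wild-type-labelled replicate 1 was left out 5 rose, and DESeq2 called 10 lower.

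The receptors behind this pathway showed small differences. Ppara, which encodes PPAR-alpha, had 61.8 ± 9.66 CPM (SD, n = 3) under the wild-type label and 73.9 ± 6.81 CPM (SD, n = 4) under the other (adjusted p = 0.11, edgeR); Ppara is named beyond the naming rule because the members are its targets. Of 11 receptor and cofactor genes edgeR called 1 lower and 0 higher (9.09% called, against 29.7% of all tested genes). At an unadjusted p under 0.05 the counts were 2 lower and 2 higher. DESeq2 called 1 lower and 0 higher, limma-voom 1 and 1, and limma-trend 1 and 0. The gene called was Ppargc1a, the coactivator PGC-1-alpha, 1.34-fold lower (adjusted p = 0.0243, edgeR). It lost its call when replicate 2 or 3 of the wild-type label or replicate 2 of the knockout label was left out. When wild-type-labelled replicate 2 was left out, Ppara itself was called higher (adjusted p = 0.0201, edgeR), and when replicate 3 was, the coactivator subunit gene Med1 was called lower (adjusted p = 0.049, edgeR).

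Most of the androgen-responsive kidney genes examined rose, as Cyp4a12a and Cyp4b1 did. Of 14 on the list 12 rose and 1 fell (92.9% called, against 29.7% of all tested genes), and the median change was 2.25 on the log2 scale. The list was drawn up with earlier results of these data known and is no independent evidence. By adjusted p its leading genes were Rnf24, 4.67-fold higher, Abcb1b, a drug efflux pump and the one that fell, 5.14-fold, Odc1, the polyamine synthesis enzyme, 6.88-fold higher, and Kap, the androgen-regulated kidney protein, 4.96-fold higher (largest adjusted p = 4.8e-05, edgeR).

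Among 8 tested genes for steroid receptors and steroid-converting enzymes 4 rose. They were Hsd17b11, a 17-beta-hydroxysteroid dehydrogenase (2.54-fold), the 5-alpha-reductases Srd5a1 (1.66-fold) and Srd5a2 (2.09-fold), which make dihydrotestosterone, and the oestrogen receptor gene Esr1 (1.34-fold), with a largest adjusted p = 0.0185 (edgeR). EdgeR called 0 lower, 1 at an unadjusted p under 0.05, and DESeq2, limma-voom and limma-trend each called 1 lower. That gene was Nr3c2, the mineralocorticoid receptor (log2 fold change -0.26, adjusted p = 0.0546, edgeR), which was called by edgeR when replicate 3 of the wild-type label or replicate 4 of the knockout label was left out.

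**Figure D4:**
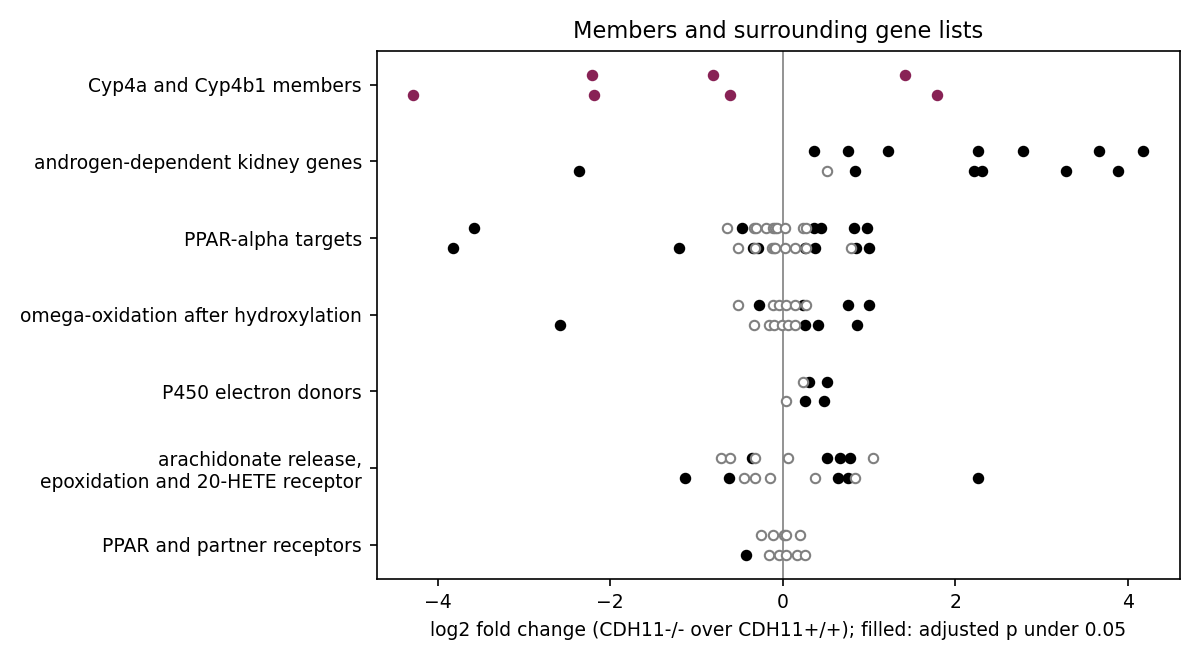
The log2 fold change (knockout over wild type label) of each tested gene, by list; filled points had an adjusted p under 0.05 and open points did not. The 7 members spread from -4.28 to 1.79, 12 of 14 androgen-responsive genes rose, and PPAR-alpha targets centred at -0.09.

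Enzymes that act before and after the hydroxylases were examined next. P450 enzymes of the endoplasmic reticulum need electrons from a reductase. The list of 6 donor genes also held Fdx1 and Fdxr, of the mitochondrial system. Of the 6 genes 4 rose (66.7% called, against 29.7% of all tested genes). They were the cytochromes b5 Cyb5a (1.43-fold) and Cyb5b (1.24-fold), the reductase Cyb5r3 (1.19-fold) and the mitochondrial ferredoxin Fdx1 (1.39-fold). By edgeR 0 fell, also at an unadjusted p under 0.05, as by DESeq2, limma-voom and limma-trend. Por, the main reductase, had a log2 fold change of 0.23 and was not called (adjusted p = 0.0613, edgeR).

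Omega-oxidation continues through alcohol and aldehyde dehydrogenases and then the peroxisome. Of 20 tested genes 6 rose and 2 fell (40.0% called, against 29.7% of all tested genes), and the median change was 0.05 on the log2 scale. Beside Aldh3a2 above, Crot, a peroxisomal carnitine acyltransferase, rose 1.82-fold and the alcohol dehydrogenase Adh5 1.33-fold. The retinal dehydrogenase Aldh1a1 was 5.98-fold lower (adjusted p = 0.000216, edgeR). When replicate 2 of the wild-type label or replicate 2, 3 or 4 of the knockout label was left out 1 fell.

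Arachidonic acid can also be turned into epoxides by Cyp2c and Cyp2j enzymes. Of 19 tested genes of its release, epoxidation, epoxide hydrolysis and other oxygenation, 6 rose and 3 fell (47.4% called, against 29.7% of all tested genes). The median change was 0.06 on the log2 scale. The epoxygenases Cyp2j13 and Cyp2j5 rose 4.81-fold and 1.70-fold, the phospholipase Pla2g6 1.71-fold and the Cyp2j gene Cyp2j11 1.58-fold (largest adjusted p = 0.00126, edgeR). Cyp2j13 is also on the androgen list. Gpr75, reported as a receptor of 20-HETE, had 0.966 CPM under the wild-type label and 1.25 CPM under the knockout label and was not called (adjusted p = 0.299, edgeR).

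Of 13 other regulators of P450 genes 4 rose and 2 fell (46.2% called, against 29.7% of all tested genes). The bile acid receptor Nr1h4 and the oxysterol receptor Nr1h3 rose 1.73-fold and 1.34-fold, and Nfe2l2, the NRF2 gene of the antioxidant response, was 1.63-fold lower (largest adjusted p = 0.0029, edgeR). When replicate 2 or 3 of either label was left out 1 fell.

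Genes with the most similar pattern over the 7 libraries were sought by the root mean square difference of log2 CPM, each centred on its own mean, among 12592 genes that averaged 1 CPM or more. For Cyp4b1 they were Ces1f, a carboxylesterase (0.05), Mpped2 (0.11) and the phosphate and urate transporter Slc17a3 (0.12). For Cyp4a12a they were the carotenoid-cleaving enzyme Bco2 (0.14), the protease inhibitor Pzp (0.19) and the nuclease Dnase1 (0.20). For Cyp4a10 they were the channel-interacting protein Kcnip2 (0.24), Aldh1a1 (0.27) and the carbonyl reductase Cbr1 (0.27), and for Cyp4a14 they included the glucuronosyltransferases Ugt1a10 (0.51) and Ugt1a2 (0.76). The distances of the nearest genes were larger for Cyp4a14 than for the other 3 members. The difference between the labels was not removed, so these distances in part reflect fold changes of similar size. Ugt1a genes share exons, so their separate values are uncertain.

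Cyp4a genes are expressed in the proximal tubule, and its markers differed between labels as well. Of 11 proximal tubule markers 7 rose (63.6% called, against 29.7% of all tested genes). By edgeR 0 fell, also at an unadjusted p under 0.05, as by DESeq2, limma-voom and limma-trend. The summed level of these markers was 10440 to 12170 CPM under the wild-type label and 15840 to 17830 CPM under the knockout label. Of 8 markers of the last segment of the proximal tubule 5 rose and 2 fell (87.5% called). Their sums were 1263 to 1479 CPM and 3773 to 4023 CPM. Genes that are also on the androgen list were not left out of the last-segment sum, so it is not independent of that list. Of the androgen genes, Slc7a13 averaged 23.5 CPM under the wild-type label and 348 CPM under the knockout label. Slc22a7 averaged 5.91 CPM and 108 CPM. In the knockout-labelled libraries, where both marker sums were higher, Cyp4a10 and Cyp4a14 were lower and Cyp4b1 and Cyp4a12a were higher. The part of cell make-up in these results was not tested. Without each library in turn, 5 to 8 proximal tubule markers rose, and 1 of the last segment fell without wild-type-labelled replicate 3 or without knockout-labelled replicate 2 or 3.

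Markers of adipocytes, liver, urothelium and adrenal cortex were mostly low. Of 6 adipocyte markers Adipoq had no count in any library, Plin1, Lep and Retn had too few to test, and the sum, nearly all Fabp4, was 13.7 to 20.5 CPM against 12.3 to 18.8 CPM. The 6 liver markers summed to 8.86 to 26.1 CPM and 2.96 to 62.8 CPM, and Ttr, the transthyretin gene, had 17.97 and 18.5 CPM in wild-type-labelled replicates 1 and 2, 57.6 CPM in knockout-labelled replicate 2, the library with the least Cyp4a14, and under 1 CPM in the other libraries. The part of this in the results was not tested. The 6 urothelial markers summed to 1.56 to 7.07 CPM and 0.894 to 8.28 CPM, and the 6 adrenal cortex markers to 1.28 to 1.52 CPM and 1.05 to 1.79 CPM, with Cyp11b2 at no count.

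Summed markers of other kidney cells were lower or overlapped. Of all tested genes 29.7% were called, 16.8% higher and 12.9% lower. The share called was 33.3% for endothelium, 25.0% for the distal convoluted tubule and 40.0% for intercalated cells and the thick ascending limb. For podocytes and principal cells it was 80.0%. Of the markers of podocytes 4 of 5 fell, of principal cells 4 of 5, of endothelium 2 of 6, of the distal convoluted tubule 1 of 4 and of intercalated cells 2 of 5, and of the thick ascending limb 1 of 5 fell and 1 rose. Over all alternatives these counts ranged from 3 to 5, 2 to 4, 2 to 3, 1 to 2 and 0 to 3 for those that fell in the first 5 types. For the thick ascending limb 1 to 3 fell, with 3 by DESeq2 and 2 by limma-voom or without wild-type-labelled replicate 2 or 3, and 0 to 1 rose, with 0 without replicate 1 or 2 of the wild-type label or replicate 2 of the knockout label. Summed podocyte markers were 403 to 498 CPM against 249 to 367 CPM, endothelial markers 325.1 to 394 CPM against 231 to 286 CPM, principal cell markers 356 to 514 CPM against 266 to 310.1 CPM and distal convoluted tubule markers 2513 to 3224 CPM against 1653 to 2149 CPM. Those of the thick ascending limb were 3208 to 4270 CPM against 2556 to 3151 CPM. The ranges overlapped for intercalated cells (124 to 212 and 95.7 to 127 CPM), fibroblasts and pericytes (170.2 to 291 and 231 to 278 CPM), smooth muscle (81.9 to 134 and 102.5 to 154 CPM) and leukocytes (31.5 to 65.0 and 58.9 to 70.5 CPM).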

How the data were processed

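RNA sequencing of 7 mouse kidneys was analysed from 2 deposited tables. The first holds expected counts per gene, which the authors deposited as whole numbers, so no rounding was needed. The second holds normalized values, a signal that the authors deposited; its ratio to the counts differs between genes of a library, and it served only as an alternative. DRAGEN, DESeq2 and the build mm10 are named in the submitters' processing notes. The sources used here do not give versions, the annotation release, the strand setting or how reads were divided between gene copies. Libraries were directional, per the labels' protocols. Groups follow the labelled genotype, and replicate numbers follow the order of deposit. The labels do not say which mice shared a litter, and p-values measure the spread between these libraries.

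Symbols and exon lengths came from GENCODE M21 (42170 of 42256 identifiers had a symbol). No 2 libraries agreed within sampling noise (median chi-square per gene 2.61 to 11.9, 1 degree of freedom). Genes were filtered with filterByExpr, scaled by TMM and tested with edgeR 4.0.16 (R 4.3.3; quasi-likelihood, robust, 2-sided, no covariates), a step first tested on simulated data. The biological coefficient of variation was 15.2%. SE is the log2 fold change divided by the root of edgeR's F statistic. Ratios had 0.5 counts added and used SciPy 1.17.1. Alternatives used DESeq2 1.42.0 and limma 3.58.1 (limma-trend on log2 of the normalized value plus 1). Members, lists and tests were chosen with earlier results of these data known. Named genes were all members, tested Cyp4 relatives, the called genes with the lowest adjusted p of each pathway list, at most 4, the called neighbours within 100 kb and the 3 genes most like each of 4 members, without predicted genes. Cyp46a1, of another family, was left out. Genes named outside this rule were chosen for their role after their values were seen. Some genes that the rule picked are not reported here.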

Additional observations from a re-analysis of the deposited data

Results flagged for a closer look

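A library that stood far from the other 3 of its group was seen in 3 of 37 sets of knockout-labelled values examined, and chance alone gives about 1 in 20. For the summed Cyp4a level the gap to the nearest library was 0.842 of the group's range, with knockout-labelled replicate 4 at 503.5 TPM above 325.9 to 354 TPM. For the share of Cyp4a12a in the Cyp4a12 sum it was 0.84, with knockout-labelled replicate 2 at 86.1% above 80.4% to 81.3%. The log2 ratio of Cyp4a12a to Cyp4a12b, which restates that share, gave 0.857, at 2.65 above 2.05 to 2.14.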

How the results depend on the processing

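All 7 members kept their direction and their call in every alternative that gave a value (17 or 18 each), including the omission of each library, other tools, scalings and filters. Their largest adjusted p was 0.0382, for Cyp4a12b. Adding the counts of near copies gave 0.98 on the log2 scale for Cyp4a12a with Cyp4a12b. For Cyp4a10 with Cyp4a31 and Cyp4a32 it gave -1.58. These sums are counted among the alternatives of Cyp4a12a and Cyp4a10, while Cyp4a12b, Cyp4a31 and Cyp4a32 had no value of their own there. No alternative changed how reads were divided between copies, so the separate directions of near copies were not tested against it. Without each library in turn the log2 fold changes ran from -4.75 to -4.04 for Cyp4a14, -2.40 to -2.07 for Cyp4a10, 1.58 to 1.95 for Cyp4a12a and 1.27 to 1.56 for Cyp4b1. The difference in the log2 ratio was 3.96 to 4.27, and 4.06 and 6.30 with single genes. Some counts of lists moved by over 1.5 times, and the cause was not tested.

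Other Cyp4 genes called higher numbered 3 with the deposited factors as offsets, the deposited normalized values or a minimum mean of 1 CPM, and 2 to 5 without single libraries, with 0 to 1 lower. PPAR-alpha targets called lower numbered 10 with DESeq2, and without single libraries 5 to 9 were higher and 5 to 8 lower. Of the PPAR and partner receptors limma-voom called 1 higher, a minimum mean of 1 CPM gave 2 lower, and the omission of libraries gave 0 to 1 either way. Among sex steroid genes 1 was lower with DESeq2, RLE scaling, upper-quartile scaling, the deposited factors as offsets, the deposited normalized values, limma-voom with quality weights, a minimum mean of 1 CPM, no low-count filter or no mitochondrial genes, and 0 to 1 without single libraries. Omega-oxidation genes called lower numbered 1 to 2 without single libraries. Other P450 regulators called lower numbered 1 with the deposited normalized values, limma-voom or a minimum mean of 1 CPM, and 1 to 2 without single libraries. The alternatives for cell type markers were added after seeing the data. No paired analysis was possible because the labels give no replicate numbers that tie libraries of the 2 labels together. Depth limits the values of Cyp4a32 and the pseudogenes, and read sharing those of the near copies.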
